A study of Homo sapiens with 27 samples.

Results

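The mature microRNAs (miRNAs) of the imprinted DLK1-DIO3 region on chromosome 14 were examined in OCI-AML3, a cell line from acute myeloid leukaemia. They were chosen by number: every mature human probe whose miRNA number belongs to that region was taken, with any letter, arm or star, and miR-136 was left out. This gave 61 of 774 human miRNA probes, for 56 miRNA names. There were 27 arrays in 9 groups of 3. Control cells were untreated and were taken at 0 h. Cells treated with 100 ng/mL SDF-1α, the ligand of the chemokine receptor CXCR4, were taken at 1, 2, 4 and 8 h, and cells treated with 250 nM POL6326, an antagonist of that receptor, were taken at the same times. Whether a group's 3 arrays hold separate cultures is not stated in the labels, so p-values measure the spread between these arrays, which may be technical. The only control is at 0 h, so in the comparisons with it treatment cannot be told apart from time in culture. These are bulk samples, in which fewer cells holding a miRNA and less of it per cell cannot be told apart.

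The DLK1-DIO3 region is imprinted: the protein-coding genes DLK1, RTL1 and DIO3 are read from the paternal chromosome, and the long noncoding RNAs MEG3, RTL1as and MEG8, together with the miRNAs, from the maternal one. The miRNAs lie in 2 stretches. One is around RTL1as, whose miRNAs are antisense to RTL1, and the other is the large miR-379/miR-656 cluster downstream. In leukaemia the region is best known for its high miRNA levels in the promyelocytic form. By this division 11 member probes were on the RTL1 side and 50 in the miR-379/miR-656 cluster. The RTL1 side here takes in every member that lies before miR-379 along the locus, from miR-770-5p to miR-370. It does not mean that each of them is antisense to RTL1.

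RefSeq held a mature sequence for 55 of the 56 names, all of them on the plus strand of chromosome 14 of GRCh38.p14. miR-668 is named only. The 55 sequences carried 52 seeds, the bases 2 to 8 that pair with a target. The members are thus mostly unlike one another in the seed, and only 3 seeds were shared by a pair of members. The sequences of the miRNAs that the results below turn on follow, 5′ to 3′ with the seed in capitals. The first 5 passed the test in the comparison of antagonist with ligand, and the other 4 passed at a single time or in a test over time. The sequence of miR-758 was at chr14:101026071-101026092, that of miR-494 at chr14:101029681-101029702 and that of miR-496 at chr14:101060628-101060649. The array's miR-380* is the 5p arm of its hairpin in RefSeq, and its miR-493 is the 3p arm.
miR-758: uUUGUGACcugguccacuaacc
miR-494: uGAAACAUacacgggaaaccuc
miR-496: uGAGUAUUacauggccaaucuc
miR-380*: uGGUUGACcauagaacaugcgc
miR-493: uGAAGGUCuacugugugccagg
miR-376c: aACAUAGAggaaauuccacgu
miR-409-3p: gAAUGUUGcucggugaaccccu
miR-543: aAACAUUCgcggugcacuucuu
miR-654-5p: uGGUGGGCcgcagaacaugugc

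No 2 of these 9 share a seed. The shared seeds belonged to miR-376a and miR-376b, to miR-379* and miR-411*, and to miR-487a and miR-154*, and they are shown because they are the only repeats among the members.
miR-376a: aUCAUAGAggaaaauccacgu
miR-376b: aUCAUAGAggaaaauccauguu
miR-379*: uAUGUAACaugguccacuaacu
miR-411*: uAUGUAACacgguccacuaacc
miR-487a: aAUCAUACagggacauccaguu
miR-154*: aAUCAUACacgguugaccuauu

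Over the whole sequence, 12 members were in one of 10 pairs that share a run of at least 11 bases, of 1485 pairs compared. miR-758 was in 3 of them: it shares accugguccacua with miR-412, ugguccacuaac with miR-379* and gguccacuaacc with miR-411*. Of these, miR-379* was at the floor (defined below) on all arrays and miR-412 was above it on all arrays. Among the other array probes, miR-380* has 1 seed partner, miR-563, which was above the floor on 4 arrays.

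On each array many probes shared one low value, its floor, which lay at 4.27 to 4.43 (log2). The lowest value above the floor is taken as that array's detection limit. It ranged from 4.27 to 7.42: the SDF-1α 1 h arrays had the highest limits (6.88 to 7.42) and the POL6326 4 h arrays the lowest (4.27 to 4.45). The number of probes above the floor, over all human probes, ranged from 210 to 593. It was 560 on control array 1, 489 on SDF-1α 8 h array 1 and 482 to 593 on the POL6326 4 h arrays, which stand apart from the others, where it was at most 422. Of the myeloid marker miRNAs, miR-223, miR-155 and miR-142-5p were above the floor on 27 arrays, miR-181a on 10 and miR-142-3p on 4. Of the probes taken as markers of other tissues, miR-122 of liver was above it on 27 arrays. Of the muscle markers miR-206 was on 27, miR-1 on 9 and the 2 miR-133a probes on 13 and 5. Of the neural markers miR-219-5p was on 26, miR-9 on 23 and miR-124 on 19, and of the epithelial ones miR-205 on 27, miR-141 on 21, miR-200b on 19 and miR-200c on 3. Of the erythroid markers miR-451 was on 17 and miR-144 on 1, and of the stromal ones miR-145 was on 26 and 14 by its 2 probes and miR-143 on 0. Their part in the results was not tested.

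Most members of the cluster were near the floor in these cells. Among the 61 members, 12 exceeded the floor on all 27 arrays, 38 did so on some and 11 on none. Among the other 576 mature probes, 22.0% exceeded it on all arrays and 12.8% on none. The 11 members at the floor throughout were miR-154*, miR-323-3p, miR-369-5p, miR-376a*, miR-379, miR-379*, miR-380, miR-411, miR-411*, miR-432 and miR-655, where for miR-411 and miR-411* this holds for the probe marked Plus/Plus. A further 32 were above the floor at least once and never above 7.42, the highest detection limit, so that their absence on an array with a high limit was not detectable. Of the 38, 10 were above the floor on no array other than control array 1, SDF-1α 8 h array 1 and the POL6326 4 h arrays.

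**Figure D1:**
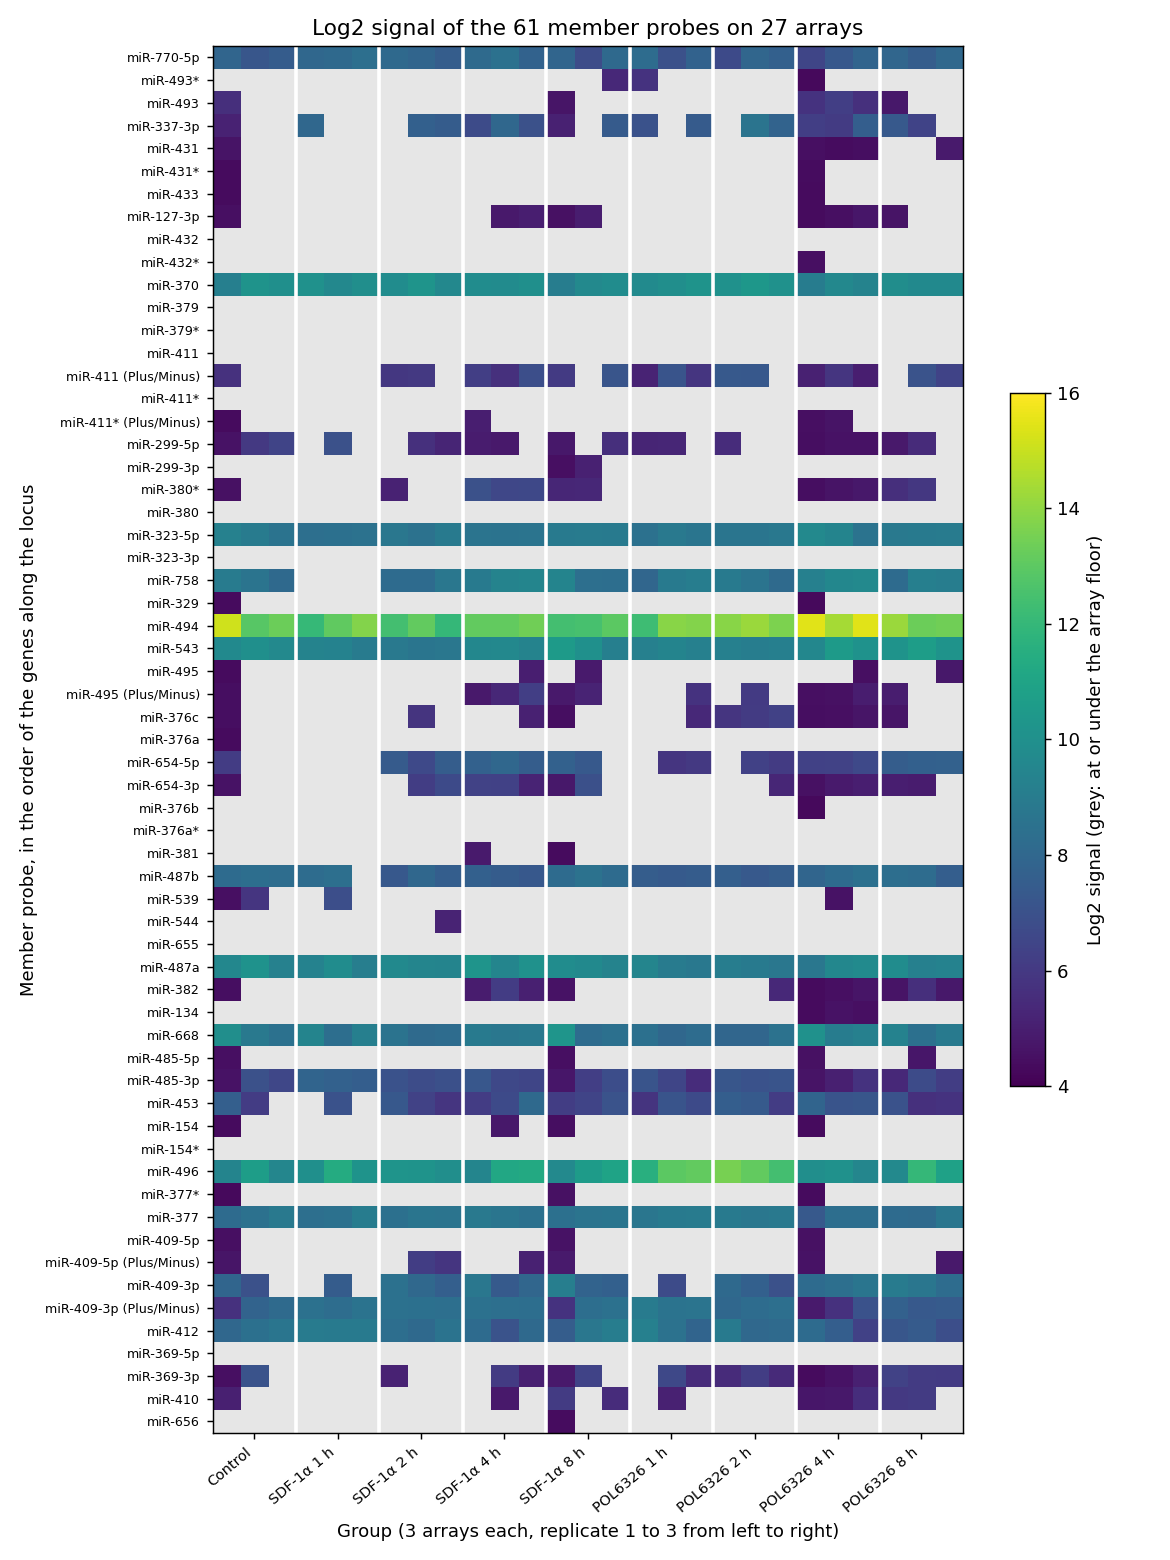
Log2 signal of the 61 member probes (rows, in the order of the genes along the locus) on 27 arrays (columns, 3 per group), with values at or under the array's floor in grey. The 12 probes above the floor on all arrays form unbroken rows, and control array 1, SDF-1α 8 h array 1 and the POL6326 4 h arrays hold many of the darkest cells.

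The number of members above the floor differed between the groups. It was 25.3 ± 14.6 (SD, n = 3) in control, with 15 on the lowest array and 42 on the highest. SDF-1α gave 14.3 ± 2.52 members for the 1 h arrays, 21.7 ± 1.53 for 2 h, 27.3 ± 1.15 for 4 h and 27.3 ± 8.50 for 8 h (SD, n = 3). POL6326 gave 20.3 ± 1.15 members for the 1 h arrays, 21.3 ± 1.15 for 2 h, 36.0 ± 6.08 for 4 h and 25.7 ± 2.52 for 8 h (SD, n = 3). The group with the highest limits had the fewest members and the group with the lowest limits had the most. An array's limit is its lowest value above the floor and tended to be lower where more probes exceeded the floor. These measures are thus not independent. The mean share of the other mature probes was above that of the members in every group, at 28.4% against 23.5% with SDF-1α at 1 h and 68.5% against 59.0% with POL6326 at 4 h. No test was made of this difference.

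**Figure D2:**
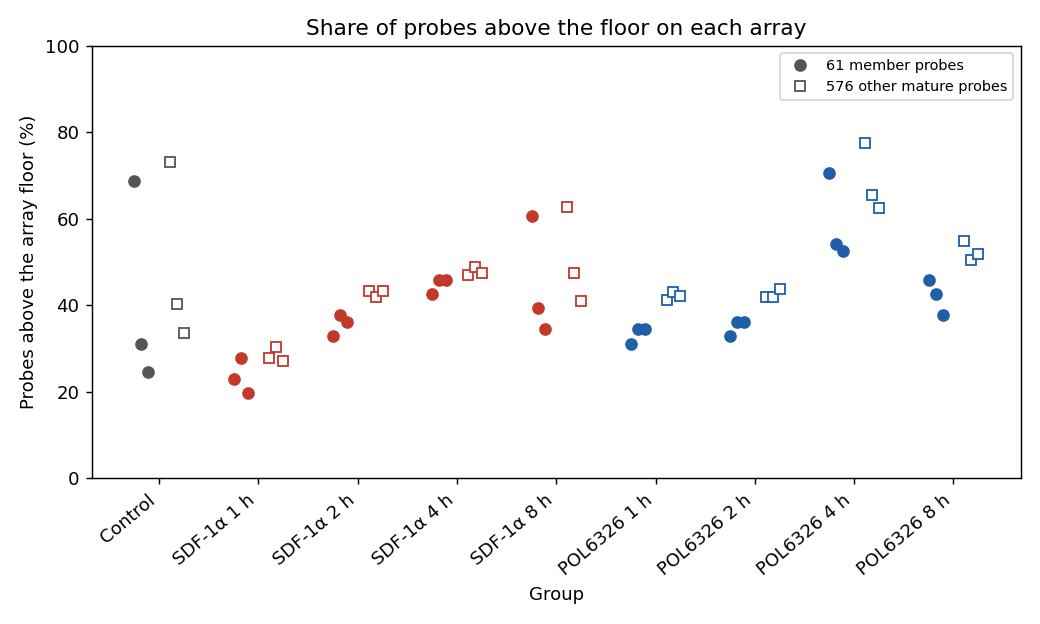
Percentage of the 61 member probes (filled circles) and of the 576 other mature probes (open squares) above the floor on each array, by group, in grey for control, red for SDF-1α and blue for POL6326. Both shares were lowest on SDF-1α 1 h array 3 and highest on POL6326 4 h array 1.

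For 15 hairpins both arms were on the array, and in 7 of them 1 arm was above the floor on at least 14 arrays and the other on at most 13. Where an arm had 2 probes, the one above the floor on more arrays was taken. The arm above the floor more often was miR-323-5p on 27 arrays against miR-323-3p on 0, miR-377 on 27 against miR-377* on 3, and miR-485-3p on 27 against miR-485-5p on 4. It was miR-369-3p on 18 against miR-369-5p on 0, and miR-299-5p on 18 against miR-299-3p on 2. By Plus/Minus probes, whose mark is taken up below, it was also miR-411 on 18 against miR-411* on 4, although the miR-411 Plus/Plus probe was above the floor on 0, and miR-409-3p on 27 against miR-409-5p on 7. Only miR-654 had both arms above the floor on most arrays, the 5p arm on 19 and the 3p arm on 14. Signals of different probes are not compared, since each probe has its own binding strength. That strength also bears on how often a probe is above the floor, so these counts do not show which arm was more abundant.

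Antagonist and ligand were compared first as the mean over the 4 times. By the labels each was given without the other, and the state of CXCR4 is not shown by these data. In limma with Benjamini-Hochberg adjustment over the 774 probes, 5 of the 61 members passed an adjusted p of 0.05, where 9.82% of all probes tested did. miR-758, miR-494, miR-496 and miR-493 were higher with POL6326 (4 members, beside 5.43% of all probes) and miR-380* was lower (1 member, beside 4.39%). The median log2 difference of the members was −0.03, and that of all 774 probes was also −0.03. The share of members called was near that of all probes. With array medians subtracted, which moved the median of all probes to −0.17, 34 members passed, 3 higher and 31 lower, beside 310 of all 774 probes, of which 44 were higher.

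miR-494 was the member with the highest mean signal and the brightest probe of the table on 2 arrays. Its log2 signals were 15.12, 12.88 and 13.29 in control. With SDF-1α the 1 h arrays read 12.06, 13.05 and 13.76, the 2 h arrays 12.41, 13.13 and 11.97, the 4 h arrays 13.13, 13.13 and 13.39 and the 8 h arrays 12.41, 12.50 and 12.99. With POL6326 the 1 h arrays read 12.27, 13.88 and 13.76, the 2 h arrays 13.88, 14.19 and 13.64, the 4 h arrays 15.46, 14.39 and 15.46 and the 8 h arrays 14.19, 13.29 and 13.39. The POL6326 arrays lay above the SDF-1α arrays of the same time at 2, 4 and 8 h without overlap, while at 1 h the groups overlapped and the control arrays spread across both. The mean difference was 1.16 on the log2 scale (SE 0.27, adjusted p = 0.0097 in limma). At 4 h alone it was 1.89 (SE 0.54, adjusted p = 0.0334). Of the POL6326 4 h arrays, 2 read the table's maximum of 15.46, which all columns share. Other exact values recur between arrays too, such as 13.1285 for miR-494 and miR-496, as in a scale set by rank. On such a scale the brightest probe cannot read above the shared maximum. The signal on those 2 arrays, and the 4 h difference with it, was then bounded by that maximum. Normalization is not given in the sources used here. Without the 4 h arrays, the groups that stood apart in probes above the floor, the mean difference was 0.91 with an adjusted p of 0.101. With each array's count of probes over the floor fitted as a covariate it was 0.84 with an adjusted p of 0.103.

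miR-496 was high with POL6326 at the early times. Its log2 signals were 9.44, 10.67 and 9.53 in control. With SDF-1α the 1 h arrays read 9.98, 11.38 and 10.19, the 2 h arrays 10.21, 10.18 and 9.95, the 4 h arrays 9.47, 11.19 and 11.30 and the 8 h arrays 9.64, 10.57 and 10.98. With POL6326 the 1 h arrays read 11.58, 12.99 and 13.13, the 2 h arrays 13.52, 13.13 and 12.41, the 4 h arrays 9.91, 10.06 and 9.53 and the 8 h arrays 9.64, 11.97 and 10.86. At 1 and 2 h every POL6326 array lay above every SDF-1α and control array, and at 4 and 8 h the treatments overlapped. The difference was 2.91 (SE 0.60, adjusted p = 0.00569 in limma) at 2 h, a fold of 7.49, and 2.05 at 1 h, where it did not pass (SE 0.60, adjusted p = 0.0697). Its mean over 4 times was 1.14 (SE 0.30, adjusted p = 0.0194), and without the 1 h arrays 0.84 with an adjusted p of 0.163. The 1 h and 2 h POL6326 arrays had 318 to 334 probes above the floor, close to the SDF-1α 2 h arrays with 317 to 332 and above the SDF-1α 1 h arrays with 210 to 241.

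miR-758, known to repress the cholesterol exporter ABCA1, did not exceed the floor on any of the 3 SDF-1α 1 h arrays and did so on the other 24. Its log2 signals were 8.98, 8.63 and 8.10 in control. With SDF-1α the 2 h arrays read 8.21, 8.21 and 8.75, the 4 h arrays 8.90, 9.39 and 9.48 and the 8 h arrays 9.41, 8.37 and 8.34. With POL6326 the 1 h arrays read 7.94, 8.89 and 9.11, the 2 h arrays 8.88, 8.63 and 8.14, the 4 h arrays 9.22, 9.54 and 9.64 and the 8 h arrays 8.18, 9.16 and 9.08. Apart from the SDF-1α 1 h group, the ranges of the treatments overlapped at each time. On the deposited scale it was at least 2.80-fold higher with POL6326 at 1 h. Here the mean detection limit of the SDF-1α 1 h arrays, 7.16, stood in place of their floor. That limit is higher where fewer probes exceed the floor, so this 1 h fold is no bound on abundance. The fitted difference there was 4.24 (SE 0.34, adjusted p = 5.44e-08 in limma), a value that depends on where the floor lies. The mean over 4 times was 1.18 (SE 0.17, adjusted p = 0.000146), and without the 1 h arrays it was 0.16 with an adjusted p of 0.684. The same SDF-1α 1 h arrays had the fewest probes above the floor, 210 to 241, and with that count as a covariate the mean was 1.01 with an adjusted p of 0.00264. With 1 common detection limit for all arrays it was 0.42 with an adjusted p of 0.0582. miR-412, which shares a run of 13 bases with miR-758, read 9.01, 8.91 and 8.89 on those arrays.

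miR-380*, the arm reported to repress p53 in neuroblastoma, was highest with SDF-1α at 4 h. It read 6.97, 6.56 and 6.62 there, and 4.44, 4.62 and 4.79 with POL6326 at 4 h, groups that do not overlap. With SDF-1α it was above the floor on 0 arrays at 1 h, 1 at 2 h (5.17) and 2 at 8 h (5.27 and 5.34). With POL6326 it was above the floor on none at 1 or 2 h and on 2 at 8 h (5.61 and 5.93), and in control on 1 (4.52). No other array reached the SDF-1α 4 h values, but the SDF-1α 1 h arrays had limits above most of that range. The difference at 4 h was −2.10 (SE 0.31, adjusted p = 0.000768 in limma), a fold of 4.28 lower with POL6326, and the mean over 4 times was −0.54 (SE 0.16, adjusted p = 0.0331). Without the 4 h arrays the mean was −0.01 with an adjusted p of 0.960, and with the covariate it was −0.61 with an adjusted p of 0.0626. It passed in 11 of the 24 fits that left out 1 array. Its seed partner miR-563 had a mean difference of 0.45 (SE 0.15, adjusted p = 0.0615), of the opposite sign.

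miR-493, reported to limit metastasis of colon cancer cells, was above the floor on 6 arrays. It read 5.76, 6.23 and 5.64 with POL6326 at 4 h, 5.62 on control array 1, 4.66 on SDF-1α 8 h array 1 and 4.79 on POL6326 8 h array 1. All 3 SDF-1α 4 h arrays were at the floor, with detection limits of 4.70 to 4.94. The POL6326 4 h arrays thus lay above the SDF-1α 4 h limits and above every other array that measured it, control array 1 nearly reaching them. Control arrays 2 and 3 and the SDF-1α 1 h arrays, with limits of 5.83 or more, cannot be placed below them. At 4 h it was at least 2.08-fold higher with POL6326 on the deposited scale (fitted log2 difference 1.56, SE 0.23, adjusted p = 0.000768 in limma). The mean over 4 times was 0.38 (SE 0.12, adjusted p = 0.0412), and without the 4 h arrays it was −0.01 with an adjusted p of 0.958. All arrays on which it was above the floor other than POL6326 8 h array 1 were among the 5 with the most probes above the floor. With that count as a covariate the mean was 0.15 with an adjusted p of 0.362, and with array medians subtracted 0.24 with an adjusted p of 0.0634. It passed in 4 of the 24 fits that left out 1 array.

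**Figure D3:**
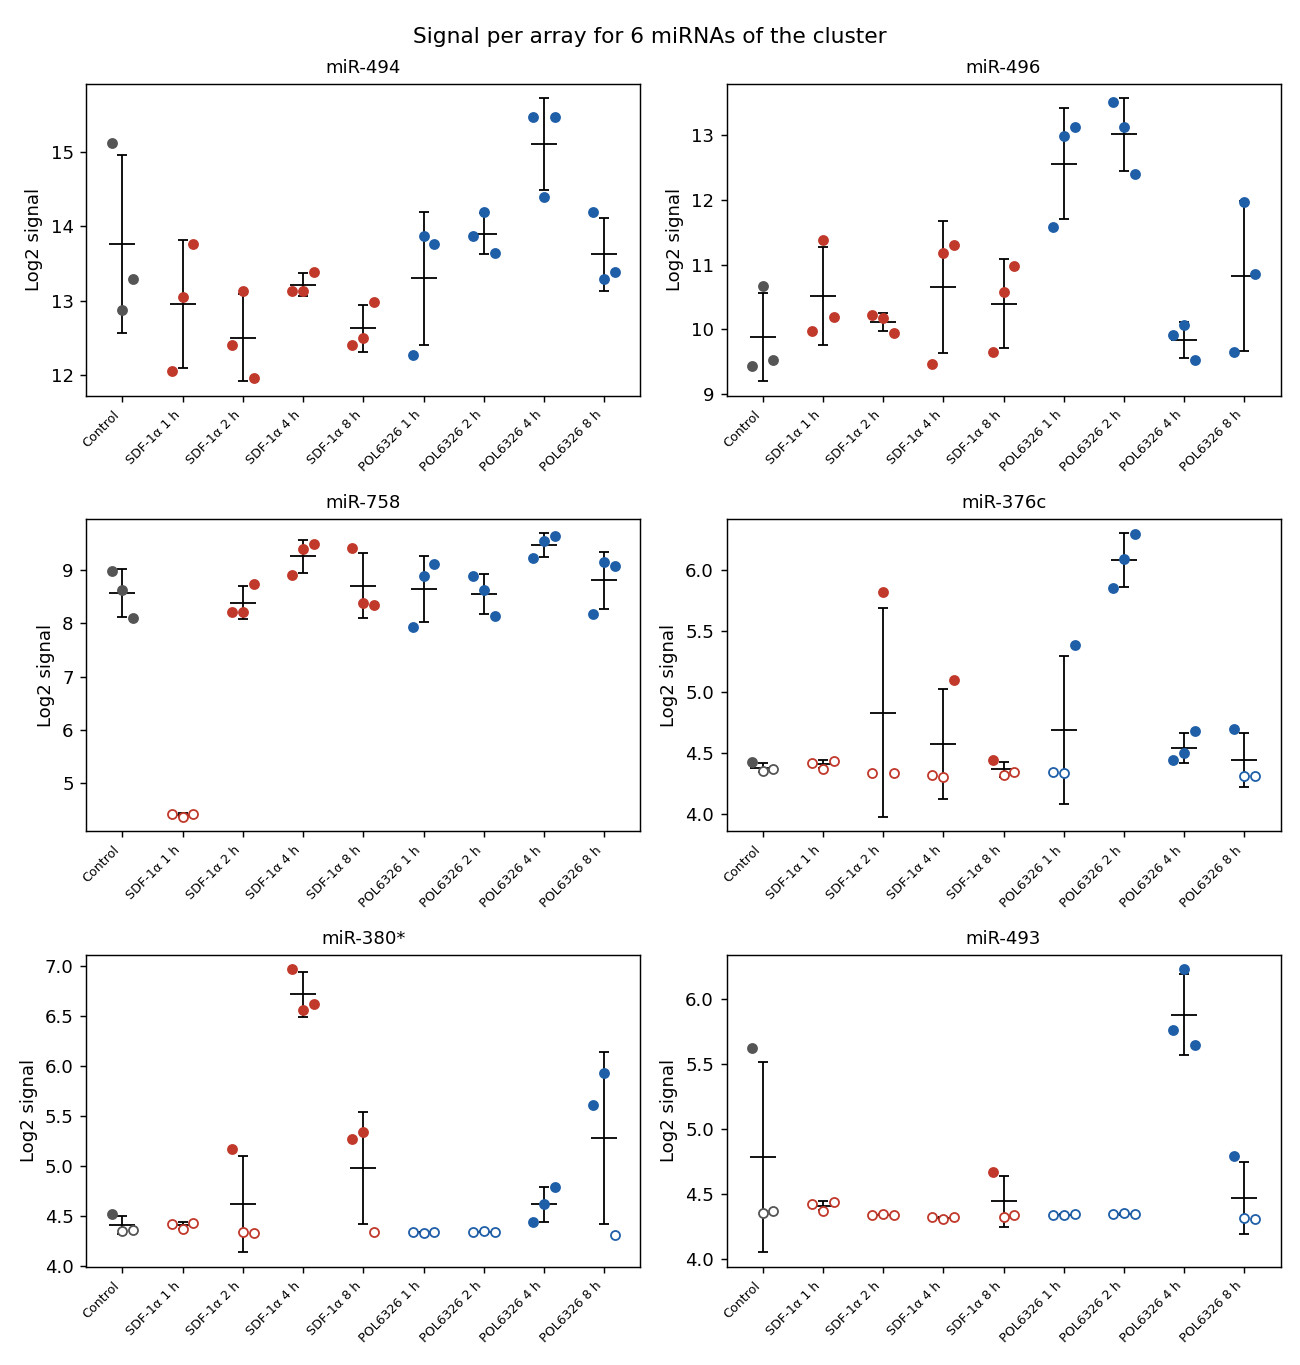
Log2 signal per array of miR-494, miR-496, miR-758, miR-376c, miR-380* and miR-493 in the 9 groups, with open circles for values at or under the floor and the bar and whiskers for the mean and SD of 3 arrays. miR-496 is highest with POL6326 at 1 and 2 h, miR-758 is at the floor only with SDF-1α at 1 h, and miR-380* is highest with SDF-1α at 4 h. Each panel has its own axis, and the panels are not comparable in level.

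At single times, 1 member passed at 1 h (3.49% of all probes did), miR-758, described above. At 2 h 3 members passed (4.13% of all probes), miR-496 and miR-376c higher and the miR-409-5p Plus/Minus probe lower, with 2.07% of all probes in each direction. The meaning of the mark Plus/Minus, carried by 5 member probes, is not given in the sources used here. miR-376c read 5.86, 6.09 and 6.30 with POL6326 at 2 h, and 5.82 on 1 SDF-1α 2 h array with the other 2 at the floor. The groups did not overlap, and the fitted difference was 1.25 (SE 0.32, adjusted p = 0.0289 in limma), a value that depends on the floor. With detection limits in place of floor values the SDF-1α mean was 5.36, beside 6.08 with POL6326. The miR-409-5p Plus/Minus probe read 6.18 and 5.87 on 2 SDF-1α 2 h arrays and was at or under the floor on the third and on all POL6326 2 h arrays, so that this SDF-1α array and the POL6326 arrays cannot be ordered and no fold is given. The fitted difference, which depends on the floor, was −1.58 (SE 0.38, adjusted p = 0.0216). One POL6326 2 h array was under the floor at 2.97, and with such values raised to the floor miR-496 and miR-376c were the 2 members that passed.

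At 4 h 6 members passed (9.82% of all probes): miR-493, miR-494, miR-134 and miR-323-5p were higher with POL6326 (3.75% of all probes were) and miR-380* and the miR-409-3p Plus/Minus probe lower (6.07%). miR-323-5p read 9.63, 9.40 and 8.59 with POL6326 and 8.61, 8.56 and 8.62 with SDF-1α, so that the groups overlapped, and the difference was 0.61 (SE 0.19, adjusted p = 0.0497). miR-134, a regulator of dendritic spine size in rat neurons, was above the floor only on the POL6326 4 h arrays, at 4.35, 4.56 and 4.48. Those values lie under the mean detection limit of the SDF-1α 4 h arrays, 4.82, so no fold is given although the fitted difference of 0.15 passed (SE 0.04, adjusted p = 0.0286). At 8 h 0 members passed in limma (1.03% of all probes), and 2 had an unadjusted p under 0.05, miR-412 at −1.32 (SE 0.45, adjusted p = 0.238) and miR-382 at 0.59 (SE 0.28, adjusted p = 0.471). With array medians subtracted 34 members passed at 4 h (2 higher and 32 lower) and 22 at 8 h (0 higher and 22 lower), beside 318 and 208 of all 774 probes, with the median of all probes at −0.34 both times. The subtraction also shifted floor values, since the median of each POL6326 array at 4 and 8 h lay above its floor.

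miR-409-3p had 2 probes, and their fitted differences at 4 h had opposite signs, which was not tested as a difference between probes. The Plus/Minus probe read 4.88, 5.72 and 7.03 with POL6326 at 4 h and 8.48, 8.36 and 8.33 with SDF-1α at 4 h, which do not overlap. Its difference was −2.51 (SE 0.62, adjusted p = 0.0154 in limma). The Plus/Plus probe read 8.18, 8.38 and 8.65 against 8.75, 7.38 and 7.98 on the same arrays, which overlap, with a difference of 0.37 (SE 0.87, adjusted p = 0.864). The Plus/Minus probe was also low on control array 1 (5.72) and SDF-1α 8 h array 1 (5.74), the other arrays with many probes above the floor. The Plus/Plus probe was above the floor on 22 arrays, and on 1 of 3 in both treatments at 1 h. At 1 h the Plus/Minus probe read 8.50, 8.30 and 8.58 with SDF-1α and 8.97, 8.55 and 8.64 with POL6326. Of the other names with both kinds of probe, miR-411 was above the floor on 18 arrays by its Plus/Minus probe and on 0 by the other, and miR-495 on 12 and 5.

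**Figure D4:**
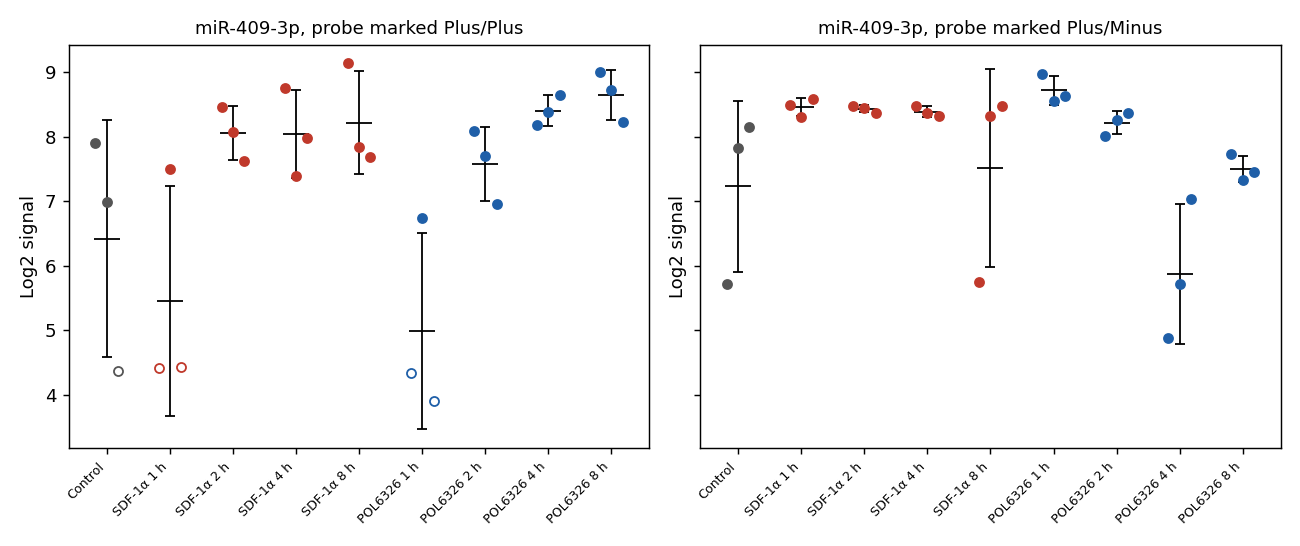
Log2 signal per array of the 2 miR-409-3p probes in the 9 groups, with open circles for values at or under the floor and the bar and whiskers for the mean and SD of 3 arrays. With POL6326 at 4 h the Plus/Minus probe falls to between 4.88 and 7.03 while the Plus/Plus probe stays between 8.18 and 8.65.

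Whether the treatments differed in their course over time was tested with the treatment by time interaction. It passed for 4 members (3.88% of all probes): miR-758 (adjusted p = 1.91e-05 in limma), miR-380* (0.00962), miR-493 (0.00962) and miR-496 (0.0421). For miR-496 the sign turned, from 2.91 at 2 h to −0.82 at 4 h, a value that did not pass (SE 0.60, adjusted p = 0.394). Without the 4 h arrays 1 member passed, miR-758. Without the 1 h arrays 3 passed, miR-380*, miR-493 and miR-496. Counts of all probes in these fits are not given here, so the member counts are not read as particular to the cluster.

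Within SDF-1α, 4 members passed the test of change over the 4 times (5.68% of all probes): miR-758, miR-380*, miR-654-5p and miR-543. miR-654-5p was at the floor on all 3 arrays at 1 h, while the 2 h arrays read 7.43, 6.66 and 7.54, the 4 h arrays 7.73, 8.00 and 7.56, and 2 of the 8 h arrays 7.72 and 7.36 with the third at the floor (adjusted p = 0.0296 in limma). The detection limits of the 1 h arrays, 6.88 to 7.42, reached into the range of the later values, so the fitted change depends on where the floor lies. In control miR-654-5p was above the floor on 1 array, at 6.13. For miR-543 the 1 h arrays read 9.35, 9.32 and 8.98, the 2 h arrays 8.83, 8.65 and 8.76, the 4 h arrays 9.56, 9.60 and 9.36 and the 8 h arrays 10.56, 10.03 and 9.20 (adjusted p = 0.0318). The 2 h arrays were the lowest, and every one lay under every array of the other times.

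Within POL6326, 8 members passed the test of change over time (13.6% of all probes). The 3 smallest p-values were those of miR-493 (adjusted p = 0.00042 in limma), miR-496 (0.00438) and miR-376c (0.00475), with miR-543, both probes of miR-409-3p, miR-377 and miR-134 after them. For miR-134, above the floor only at 4 h (4.35 to 4.56), the limits at the other times were 4.60 or more, so a change cannot be told. miR-376c was above the floor on 1 array at 1 h (5.39), on 3 at 2 h, on 3 at 4 h (4.44, 4.50 and 4.68) and on 1 at 8 h (4.69). Its 2 h values lay above all others. For miR-543 the 1 h arrays read 9.25, 9.40 and 9.20, the 2 h arrays 9.24, 9.11 and 9.18, the 4 h arrays 9.57, 10.52 and 10.13 and the 8 h arrays 10.18, 10.67 and 10.16 (adjusted p = 0.00742), so that all 4 h and 8 h arrays lay above all earlier ones. In control miR-543 read 9.68, 9.97 and 9.64, above all early POL6326 arrays and within the range of the late ones. miR-377, known for raising fibronectin in diabetic kidney disease, read 7.35, 8.32 and 8.34 at 4 h against 8.71 to 9.01 at 1 h (adjusted p = 0.0273).

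Compared with control over the mean of 4 times, 0 members passed in limma for SDF-1α (2.84% of all probes) and 0 for POL6326 (3.75%). At an unadjusted p under 0.05 there were 6 members with SDF-1α, beside 108 of all probes, and 4 with POL6326, beside 117, and both comparisons share the same control arrays. With SDF-1α the smallest adjusted p was 0.0995, for miR-758 at −0.88 (SE 0.27), followed by miR-380* at 0.77 (SE 0.25, adjusted p = 0.111). With POL6326 it was miR-496 at 1.68 (SE 0.47, adjusted p = 0.0503), and the other differences had adjusted p-values of at least 0.289. miR-654-5p was at 1.52 with SDF-1α (SE 0.58, adjusted p = 0.203) and 1.26 with POL6326 (SE 0.58, adjusted p = 0.303). The estimates of miR-337-3p were larger with a wider error, 1.62 (SE 0.99, adjusted p = 0.534) and 1.85 (SE 0.99, adjusted p = 0.408). In control miR-380*, miR-654-5p and miR-337-3p were each above the floor on 1 array. miR-758 was at the floor on all SDF-1α 1 h arrays. All the differences named here but that of miR-496 thus depend on where the floor lies. The control arrays spread widely, with 257 to 560 probes above the floor.

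The 12 members above the floor on all arrays give differences that do not rest on the floor. Besides miR-494 and miR-496, miR-370 ranged from 9.03 to 10.33, miR-543 from 8.65 to 10.67, miR-487a from 8.77 to 10.23, miR-323-5p from 8.38 to 9.63 and miR-377 from 7.35 to 9.06. miR-668 ranged from 7.94 to 10.25, miR-770-5p from 6.52 to 8.50, miR-412 from 6.33 to 9.21, miR-485-3p from 4.58 to 7.88 and the miR-409-3p Plus/Minus probe from 4.88 to 8.97. In the mean of antagonist against ligand, miR-494 and miR-496 were the ones of these 12 that passed. The next were miR-487a, at −0.42 (SE 0.14, adjusted p = 0.0615 in limma), and miR-543, at 0.37 (SE 0.13, adjusted p = 0.0731). By time, miR-487a differed by −0.35 (1 h), −0.59 (2 h), −0.57 (4 h) and −0.16 (8 h) in the fit, none past the threshold.

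**Figure D5:**
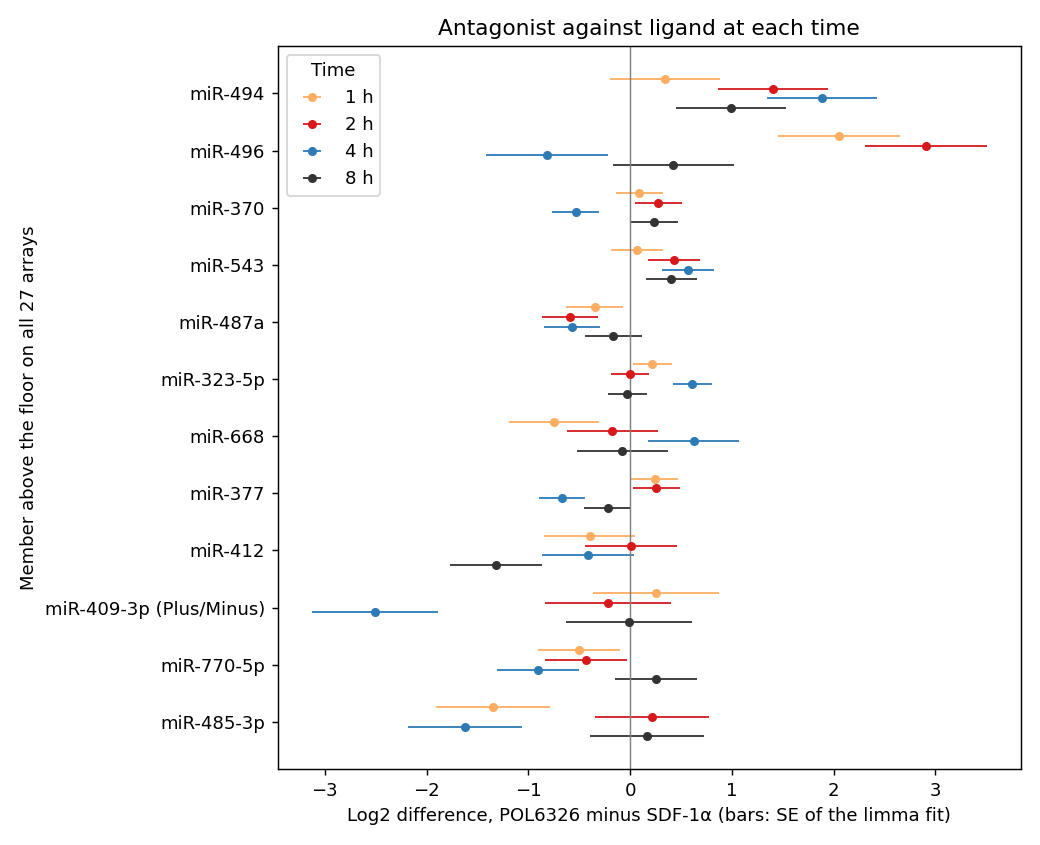
Log2 difference of POL6326 minus SDF-1α at 1, 2, 4 and 8 h for the 12 members above the floor on all 27 arrays, in order of mean signal, with bars for the SE of the limma fit. miR-496 lies at 2.05 and 2.91 at 1 and 2 h, miR-494 at 1.89 at 4 h, and the miR-409-3p Plus/Minus probe at −2.51 at 4 h.

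Precursor hairpins of the same numbers had 18 probes. The precursors of miR-431 and miR-433 were above the floor on 27 arrays, and mature miR-431 and miR-433 on 5 and 2. Mature miR-496 and miR-487a were above the floor on 27 arrays and their precursors on 1 and 4. In the mean of antagonist against ligand 1 precursor passed, where 9.82% of all probes did. It was that of miR-376b, higher with POL6326 by 1.89 (SE 0.38, adjusted p = 0.00306 in limma). It read 8.34, 8.77 and 6.89 with POL6326 at 4 h, against 3 SDF-1α arrays at the floor. On the deposited scale it was at least 9.07-fold higher there (adjusted p = 0.00624 in limma). No SDF-1α array exceeded the floor at 1, 2 or 4 h, and the values were 5.19, 5.27 and 5.88 at 8 h. Mature miR-376b was above the floor on 1 array.

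The precursor of miR-433 passed against control with both treatments, at 2.02 with SDF-1α (SE 0.38, adjusted p = 0.00588 in limma) and 1.75 with POL6326 (SE 0.38, adjusted p = 0.00918). It read 4.96, 7.09 and 6.55 in control, 7.46 to 9.13 with SDF-1α, and 7.71 to 8.89 with POL6326 at 1, 2 and 8 h. With POL6326 at 4 h it read 5.42, 6.70 and 7.32, within or near the control range, and its 2 lowest values were on the 2 arrays with the most probes above the floor, control array 1 and POL6326 4 h array 1. At 4 h it was lower with POL6326 than with SDF-1α by a log2 difference of −1.99 (SE 0.48, adjusted p = 0.0136 in limma).

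The precursor of miR-431 also passed against control with SDF-1α, at 0.38 (SE 0.10, adjusted p = 0.0498 in limma). At 4 h it read 10.72, 10.60 and 10.98 with POL6326 and 11.43, 11.30 and 11.21 with SDF-1α, without overlap, a difference of −0.54 (SE 0.13, adjusted p = 0.0124). At 2 h the Plus/Minus precursor of miR-495 read 7.72, 8.88 and 8.30 with POL6326 and 9.90, 9.86 and 10.09 with SDF-1α, again without overlap, a difference of −1.65 (SE 0.40, adjusted p = 0.0216).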

How the data were processed

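MicroRNA arrays of total RNA from 27 samples were used. Per the labels' protocols, the RNA was copied into biotin-labelled cDNA and hybridised. The authors deposited 1 table of log2 signals for 784 probes, of which 10 are control probes and were left out. Its 27 columns share 1 maximum and other exact values, as in a scale set by rank. Quantile normalization as an alternative is thus not an independent check. Normalization and scanner software are not given in the sources read here, and the values were used as they stand. Means for 9 groups were fitted to the 774 human probes with limma 3.58.1 in R 4.3.3 (empirical Bayes, prior degrees of freedom 0.90), with two-sided p-values adjusted by Benjamini-Hochberg over 774 probes and a threshold of 0.05. With 3 arrays per group an exact permutation test cannot go under p = 0.1. The fit was tested on simulated data with normal noise and no floor, which does not test the p-values of probes near the floor. An array's floor is its most frequent value, with a tolerance of 1e-04. Where a whole group was at the floor, a fold is a bound against the mean of its detection limits. Tied floor values make SEs small. Old array names were matched by hand to RefSeq arms. Named miRNAs were those past the threshold in the means, the 5 smallest p at each time, the 3 smallest in each F-test and those above the floor on all arrays, with others by counts and miR-323-5p, miR-543, miR-377, miR-382, miR-412, miR-654-5p and the precursors partly named after their values were seen. The members and lists were chosen with earlier results of these data known.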

Additional observations from a re-analysis of the deposited data

Results flagged for a closer look

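The difference between POL6326 and SDF-1α itself differed between the 4 times for 4 members, by the treatment by time interaction in limma. The adjusted p was 1.91e-05 for miR-758, where the SDF-1α 1 h arrays alone were at the floor. It was 0.00962 for miR-380*, where the SDF-1α 4 h arrays were high, and 0.00962 for miR-493, where the POL6326 4 h arrays were high. It was 0.0421 for miR-496, which was high with POL6326 at 1 and 2 h. Groups of 3 arrays are too small for a test of single arrays that lie far from the others, so none was made.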

How the results depend on the processing

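Counts of members past the threshold are given as the main value and then under each alternative that moved it by over 1.5 times. For POL6326 against SDF-1α over 4 times the count was 5 (beside 76 of all probes), and it was 34 with array medians subtracted (310 of all probes), 3 with each array's count of probes over the floor as a covariate (miR-758, miR-496 and miR-409-5p, beside 39), 3 without the 1 h arrays (60), 2 without the 4 h arrays (44) and 3 to 7 leaving out each array in turn. The count was 3 without replicates 1 or 3 of SDF-1α 1 h, 1 of SDF-1α 4 h, 2 of SDF-1α 8 h, 2 or 3 of POL6326 1 h, any replicate of POL6326 2 h, or 2 of POL6326 4 h, and each time miR-758, miR-494 and miR-496 were the ones called. Subtracting medians moved the median difference of all probes to a log2 of −0.17, and to −0.34 at 4 h and at 8 h. At 1 h the count was 1 (27). It was 2 without probes mostly at the floor (40) and 3 with a common limit (24) or the covariate (32). Leaving out arrays gave 1 to 3, most without POL6326 replicate 1. At 2 h it was 3, and 1 without probes mostly at the floor, 1 with the common limit and 1 to 3 leaving out arrays, lowest without SDF-1α 2 h replicate 3 or POL6326 2 h replicate 2. At 4 h it was 6 (76 of all probes), and 34 with medians subtracted (318), 3 without probes mostly at the floor (64), 3 with the covariate (9) and 3 to 6 leaving out arrays, lowest without replicate 1 of either treatment. At 8 h it was 0 (8), and 22 with medians subtracted (208). For SDF-1α against control it was 0, and 1 with the common limit (miR-409-3p, Plus/Minus), 1 without the 1 h arrays (miR-380*), 1 without the 4 h arrays (miR-758) and 0 to 1 leaving out arrays (miR-758, without control replicate 3 or SDF-1α 8 h replicate 1). For POL6326 against control it was 0, and 1, miR-496, with quantile normalization, without probes mostly at the floor, with the common limit, with the covariate or without the 4 h arrays, and 0 to 1 leaving out arrays (miR-496, without control replicate 2, POL6326 1 h replicate 1, POL6326 2 h replicate 3 or POL6326 8 h replicate 1). For the interaction it was 4 (30), and 25 with medians subtracted (226), 2 without probes mostly at the floor, 1 without the 4 h arrays and 3 to 4 leaving out arrays. For the change with SDF-1α it was 4, and 2 each with the covariate, with only the groups compared, without the 1 h arrays and without the 4 h arrays. It was 21 (224 of all probes, against 44) with values under the floor raised to it, an alternative added after seeing the data, and 2 to 16 leaving out arrays, 16 without SDF-1α 1 h replicate 2, 15 without SDF-1α 8 h replicate 3 and 2 without SDF-1α 4 h replicate 2. For the change with POL6326 it was 8 (105), and 37 with medians subtracted (405), 3 with the covariate (34), 22 with only the groups compared (273), 3 without the 4 h arrays and 5 to 9 leaving out arrays, lowest without POL6326 1 h replicate 3. The cause of these moves was not tested.

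In the mean over 4 times, miR-493 reversed without the 4 h arrays (log2 −0.011). miR-758, miR-494 and miR-496 were past the threshold in 24 of 24 fits that left out 1 array, miR-380* in 11 and miR-493 in 4. miR-758 had a log2 difference of 0.42 with the common limit (adjusted p = 0.0582 in limma), miR-380* of −0.61 with the covariate (0.0626), and miR-493 of 0.24 with medians subtracted (0.0634) and 0.15 with the covariate (0.362).

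The correlations of same-numbered replicates had a median of 0.018, ranged from −0.161 to 0.541 and passed 0.1 in 19 of 108 pairs. They did not pass it in every pair, so the numbers were not taken as pairing the samples. A fit with the replicate number as a block gave 5 members over 4 times, 2 at 1 h and 1 for POL6326 against control, where miR-496 was added to the calls. Of the 27 arrays, 17 correlated best with their own number, a hint from the data and not the design.

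The limits are that most members lie near the floor, that the detection limit differs between groups, that SDF-1α 1 h had the highest limits and POL6326 4 h the lowest, and that the covariate can remove part of a treatment effect.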
